A study of Mus musculus with 6 samples.

Results

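The genes described here encode the proteases that cut the Notch receptor: the sheddase genes Adam10 and Adam17, and the gamma-secretase subunit genes Psen2, Psenen, Ncstn, Aph1a and Aph1b. Members were all non-control probe sets that the platform annotation assigns to exactly 1 of these 7 symbols. There were 13 such probe sets of 22626 tested, and they read 6 of the 7 genes among 12393 genes in all. Adam10, Adam17 and Aph1a had 3 probe sets each, Psen2 had 2, and Psenen and Ncstn had 1 each. The annotation used lists no probe set under Aph1b, which was not analysed here.

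A Notch receptor is activated by cleavage. When a ligand on a neighbouring cell pulls on the receptor, a membrane-bound ADAM metalloprotease removes its outer part, and gamma-secretase then cuts the remaining stub inside the membrane. This frees the intracellular domain, which enters the nucleus and acts with Rbpj on target genes. In the presomitic mesoderm this signal drives the segmentation clock and sets the somite boundaries, and Dll3 is a divergent Notch ligand of that tissue.

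RNA was taken from the tail end of mouse embryos 9.5 days post coitum, which holds the presomitic mesoderm, cut off behind the youngest somite and holding tissue of all germ layers. In 3 biological replicate pools the embryos were homozygous for the Dll3 neo allele (Dll3-tm1Rbe/tm1Rbe, also called Dll3neo/neo) on a c57bl/6 background, and they are called mutant below. In the other 3 pools they were wild-type c57bl/6 embryos (WT). Each pool was hybridised to 1 Affymetrix MOE430A array. The comparison asked which genes of this tissue depend on Dll3. The number of embryos per pool is not stated in the labels, and in such pooled tissue fewer cells of a type and less RNA per cell cannot be told apart.

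Each deposited value is linear and is a ratio to a divisor of its own probe set. The median of the 6 arrays is 1, within 0.002, for each of the 13 probe sets described, and lower for 7.25% of all probe sets. Such a ratio compares pools for 1 probe set and gives no level, so neither the order of these genes by abundance nor the presence of tissue markers could be read. The median ratio of an array lay between 0.985 and 1.01. Dll3 itself had ratios of 0.480, 0.476 and 0.537 in mutant pools 1, 2 and 3, against 1.46, 1.63 and 2.01 in WT pools 1, 2 and 3. It was lower in all 3 mutant pools by a log2 difference of -1.76 (SE 0.14, limma adjusted p = 0.00691). It was the 1 probe set of 22626 past an adjusted p of 0.05, a background of 0.00442%. Its call was lost in each of 4 of the 6 fits that left out 1 pool: WT pool 2 (adjusted p = 0.0757), or mutant pool 1 (0.0924), 2 (0.0699) or 3 (0.0627). The log2 difference of Dll3 in those 4 fits was -1.79, -1.74, -1.73 and -1.82, close to that of all 6 pools.

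No transcript of the cleavage machinery passed the test. Of the 13 probe sets, 5 had higher and 8 had lower mutant values by sign (38.5% and 61.5%), beside 49.1% higher and 50.9% lower over all probe sets. The median log2 difference was -0.011, beside -0.0021 over all probe sets tested. In limma, 0 of 13 reached an adjusted p of 0.05 (each at 0.9999), and 0 reached an unadjusted p of 0.05, beside 1.16% of all probe sets. By sign, all 6 probe sets of the ADAM genes were lower and 5 of the 7 probe sets of gamma-secretase subunits were higher. None of these values passed the test, and the sign turned under at least 1 alternative for 5 of the 6 ADAM probe sets and 4 of the 7 subunit probe sets.

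The confidence intervals bound the difference of the deposited ratios only. The ratios carry no signal over background, so the intervals do not bound the change of a transcript that its probe set hardly read. For all 13 probe sets the 95% interval of the difference, taken probe set by probe set, lay inside a 2-fold change in either direction. For 10 of 13 it also lay inside a 1.5-fold change (0.58 on the log2 scale), as it did for 91.2% of all probe sets. The 3 that reached past 1.5-fold, 2 of Adam10 and 1 of Aph1a, did so on the lower side.

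**Figure D1:**
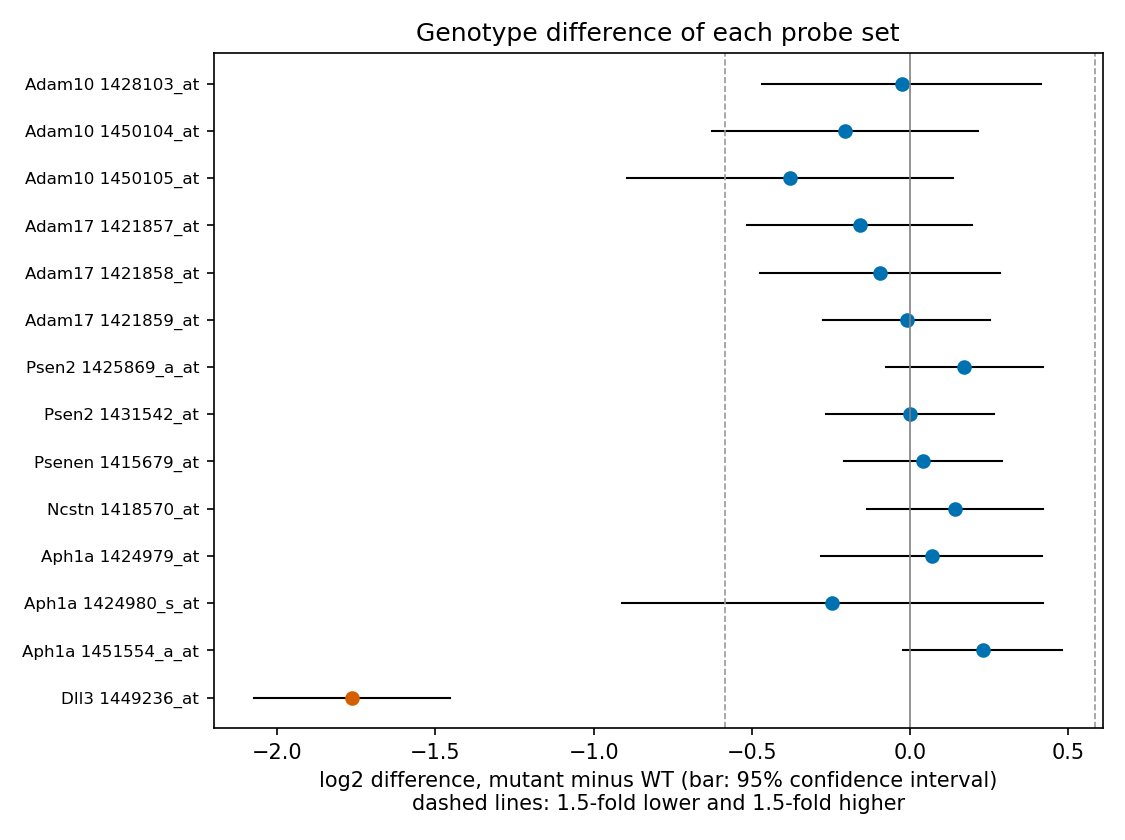
Log2 difference of each probe set, mutant minus WT (horizontal axis), with its 95% confidence interval as a bar, and Dll3 in the bottom row. All 13 intervals of the cleavage genes cross 0 and stay above -1 and below 1, while that of Dll3 runs from -2.07 to -1.45.

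Adam10 encodes the sheddase that makes the first cut of ligand-bound Notch, and of the 6 genes it had the most negative difference, though within its error. Probe set 1450105_at had ratios of 1.09, 0.555 and 0.935 in mutant pools 1, 2 and 3, against 1, 1 and 1.25 in WT pools 1, 2 and 3. Mutant pool 2 was far below the rest and mutant pool 1 was above 2 WT pools, so the genotypes overlapped. Its log2 difference was -0.38 (95% interval -0.89 to 0.14), and -0.09 without mutant pool 2.

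Probe set 1450104_at, designed from the same transcript accession, had 1.01, 0.641 and 1.03 in the mutant pools, against 1.14, 0.904 and 0.992 in the WT pools. Mutant pool 2 again stood alone below all others. A log2 difference of -0.21 (95% interval -0.63 to 0.21) resulted, and it turned to 0.016 without mutant pool 2.

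The third Adam10 probe set, 1428103_at, was designed from another accession. It had 0.963, 0.974 and 1.06 in the mutant pools, against 0.746, 1.03 and 1.37 in the WT pools. Here mutant pool 2 was unremarkable and the spread lay in the WT, whose pools 1 and 3 were the lowest and the highest of all 6. This gave a log2 difference of -0.027 (95% interval -0.47 to 0.41), turning to 0.19 without WT pool 3. The mean of the 3 probe sets gave a log2 difference of -0.20 (95% interval -0.56 to 0.15) for Adam10, and -0.028 without mutant pool 2.

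Adam17 encodes the sheddase best known for releasing tumour necrosis factor, which can also cut Notch. All 3 of its probe sets were designed from 1 accession, and they did not behave alike. Probe set 1421857_at had 0.983, 0.710 and 1.05 in the mutant pools, against 1.02, 0.928 and 1.08 in the WT pools. Mutant pool 2 was the lowest value, as in 1450104_at and 1450105_at of Adam10. The log2 difference of -0.16 (95% interval -0.51 to 0.20) turned to 0.014 without that pool.

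Probe set 1421858_at had 1.02, 1.08 and 0.872 in the mutant pools, against 0.976, 0.888 and 1.36 in the WT pools. Mutant pool 2 was here the second highest, and WT pool 3 stood above all others. The log2 difference of -0.09 (95% interval -0.47 to 0.28) turned to 0.087 without WT pool 3. It also turned to 0.012 with quantile normalization.

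Probe set 1421859_at was the steadiest of Adam17, with 1.05, 0.999 and 0.878 in the mutant pools, against 0.913, 1.03 and 1.001 in the WT pools. The genotypes overlapped almost fully, with a log2 difference of -0.011 (95% interval -0.27 to 0.25). The mean of the 3 probe sets gave -0.09 for Adam17 (95% interval -0.34 to 0.16), and it ran from -0.14 to -0.0055 in the sets of 5 pools, nearest to 0 without WT pool 3.

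**Figure D2:**
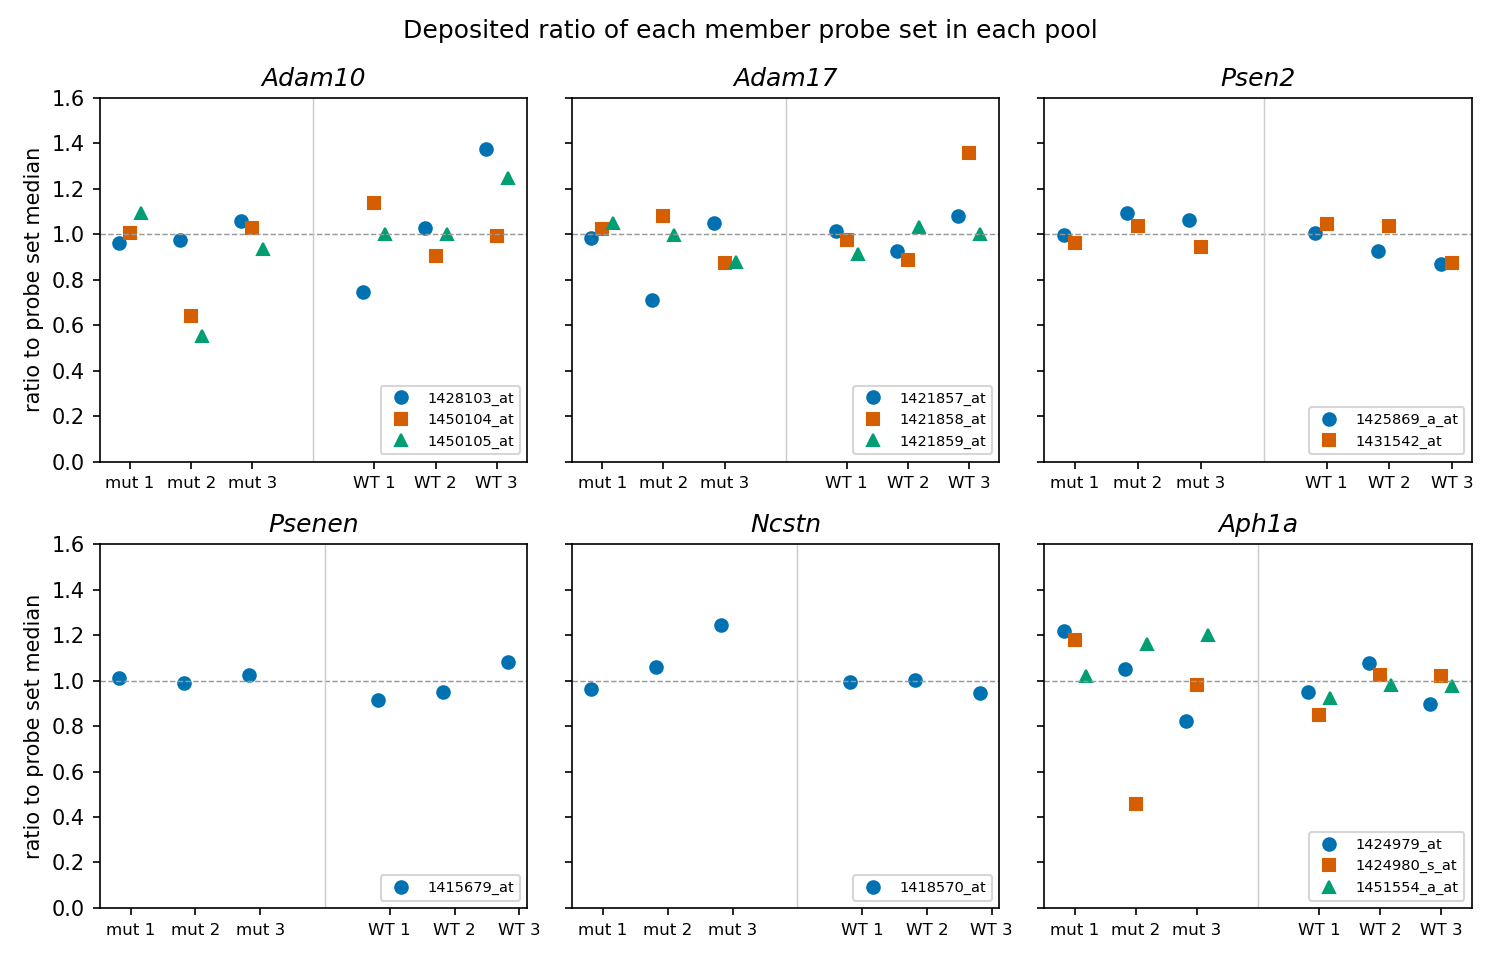
Deposited ratio of each probe set to its own median (vertical axis, linear) in the 3 mutant pools (left of the grey line) and the 3 WT pools (right of it), with 1 panel per gene and 1 symbol per probe set. In mutant pool 2, a pair of Adam10 probe sets, 1 of Adam17 and 1 of Aph1a fall to between 0.459 and 0.710, while Psen2, Psenen and Ncstn stay between 0.870 and 1.25 in all pools.

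Psen2 encodes presenilin 2, an aspartyl protease that can form the catalytic core of gamma-secretase. Probe set 1425869_a_at had 0.996, 1.09 and 1.06 in the mutant pools, against 1.004, 0.927 and 0.870 in the WT pools. Mutant pools 2 and 3 lay above every WT pool, and mutant pool 1 lay just below WT pool 1. Between genotypes the log2 difference was 0.17 (95% interval -0.08 to 0.42), and it lay between 0.12 and 0.22 in the sets of 5 pools.

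The other Psen2 probe set, 1431542_at, had 0.963, 1.04 and 0.945 in the mutant pools, against 1.05, 1.04 and 0.872 in the WT pools. The genotypes overlapped, and the log2 difference was -6.33e-04 (95% interval -0.27 to 0.26). The mean of both was 0.09 (95% interval -0.15 to 0.32), falling to 0.018 if WT pool 3 was left out and to 0.050 if mutant pool 2 was.

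Psenen encodes Pen-2, the small subunit that completes the complex and allows presenilin to be cut into its active form. Its probe set 1415679_at had 1.01, 0.990 and 1.02 in the mutant pools, against 0.916, 0.948 and 1.08 in the WT pools. The mutant pools lay close together within the WT range. The log2 difference was 0.040 (SE 0.11, 95% interval -0.21 to 0.29), and it was -0.0081, 0.017 and 0.11 without WT pool 1, 2 and 3. By the RefSeq gene table of GRCm38.p6, Psenen lies on the same chromosome as Dll3, with 85 protein-coding genes between them, while the other 5 measured genes are on other chromosomes.

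Ncstn encodes nicastrin, the large glycoprotein subunit that takes part in substrate recognition. Probe set 1418570_at had 0.964, 1.06 and 1.25 in the mutant pools, against 0.996, 1.004 and 0.946 in the WT pools. Mutant pool 3 was the highest value and mutant pool 1 was below 2 WT pools. The log2 difference was 0.14 (95% interval -0.14 to 0.42), reaching 0.23 without mutant pool 1 and 0.042 once mutant pool 3 was left out.

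Aph1a encodes the main Aph-1 scaffold subunit of gamma-secretase, and it gave both the most separated and the most scattered values of the set. All 3 of its probe sets were designed from 1 accession. Probe set 1451554_a_at had 1.02, 1.16 and 1.20 in the mutant pools, against 0.925, 0.979 and 0.975 in the WT pools. All 3 mutant pools lay above all 3 WT pools, the 1 such case among the 13 probe sets. The ratio averaged 1.13 ± 0.0941 in the mutant and 0.960 ± 0.0301 in the WT (SD, n = 3 each). The log2 difference was 0.23 (SE 0.11, 95% interval -0.022 to 0.48), and it did not pass in limma (unadjusted p = 0.0690, adjusted p = 0.9999). Over all probe sets, 3.05% were higher in the mutant without overlap and 5.03% did not overlap in either direction, so 1 case among 13 is not a result about these genes.

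Probe set 1424979_at had 1.22, 1.05 and 0.823 in the mutant pools, against 0.948, 1.08 and 0.897 in the WT pools. The mutant pools spanned the whole WT range, and mutant pools 1 and 3 held the highest and the lowest value. It had a log2 difference of 0.068 (95% interval -0.28 to 0.42), turning to -0.062 without mutant pool 1 and reaching 0.22 without mutant pool 3.

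Probe set 1424980_s_at had 1.18, 0.459 and 0.981 in the mutant pools, against 0.847, 1.02 and 1.02 in the WT pools. Mutant pool 2 was by far the lowest and mutant pool 1 the highest. Its log2 difference was -0.25 (95% interval -0.91 to 0.42), and it turned to 0.16 without mutant pool 2. The suffix of this probe set marks a design that can match transcripts of more than 1 gene. The mean of the 3 probe sets gave 0.017 for Aph1a (95% interval -0.27 to 0.31), turning to -0.093 without mutant pool 1 and to -0.028 without WT pool 1.

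Probe sets of the same gene often differed across pools, and how far they tracked each other depended on single pools. Among the 10 pairs of probe sets within Adam10, Adam17, Psen2 and Aph1a, 7 had differences of the same sign, or 6 of 6 in the ADAM genes and 1 of 4 in Psen2 and Aph1a. Pearson's r over the 6 arrays was above 0 for 6 pairs and below 0 for 4, with a median of 0.021. Over all 12821 such pairs on the array the median r was 0.33, the quartiles were -0.13 and 0.67, and 58.2% shared a sign. With 1 pool left out, the median r of the 10 pairs was 0.29 without mutant pool 2 (0.38 over all pairs), 0.18 without mutant pool 3 (0.39), and -0.041 without mutant pool 1 (0.37). It was 0.20 without WT pool 1 (0.35), -0.029 without WT pool 2 (0.36) and -0.31 without WT pool 3 (0.17). All these pairs share the same 6 arrays, and the ratios hold no measure of how bright a probe set was.

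The closest pair was 1450104_at and 1450105_at of Adam10, with r = 0.85 over the 6 arrays. Without mutant pool 2 the value was -0.15 over the remaining 5 arrays. The most distant pair was 1424980_s_at and 1451554_a_at of Aph1a, with r = -0.43 and differences 0.47 apart on the log2 scale. Its r turned to 0.24 without mutant pool 2. Leaving out that pool also took r to 0.58 for 1421857_at with 1421858_at of Adam17, against 0.037 over the 6 arrays, and to 0.62 for 1424979_at with 1424980_s_at of Aph1a, against 0.0058. For 1428103_at with 1450105_at of Adam10 it took r to 0.61, against 0.30. The other pairs went down without that pool. For 1428103_at with 1450104_at of Adam10 r went from -0.14 to -0.59, and for 1424979_at with 1451554_a_at of Aph1a from -0.23 to -0.40. In Adam17 it went from -0.32 to -0.51 for 1421857_at with 1421859_at, and from 0.36 to 0.34 for 1421858_at with 1421859_at. The 2 probe sets of Psen2 had r = 0.50, and 0.37 without mutant pool 2.

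The spread between pools of 1 genotype differed widely among these transcripts. The residual SD on the log2 scale had a median of 0.22 over the 13 probe sets, beside 0.16 over all probe sets. It was 0.088 and 0.12 for Psen2, 0.092 for Psenen and 0.14 for Ncstn, all below that of the median probe set. All 3 Adam10 probe sets were above it, at 0.32, 0.30 and 0.39, and those of Adam17 had 0.23, 0.25 and 0.11. Aph1a ran from 0.093 for 1451554_a_at to 0.52 for 1424980_s_at, which was more variable than 99.3% of all probe sets.

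**Figure D3:**
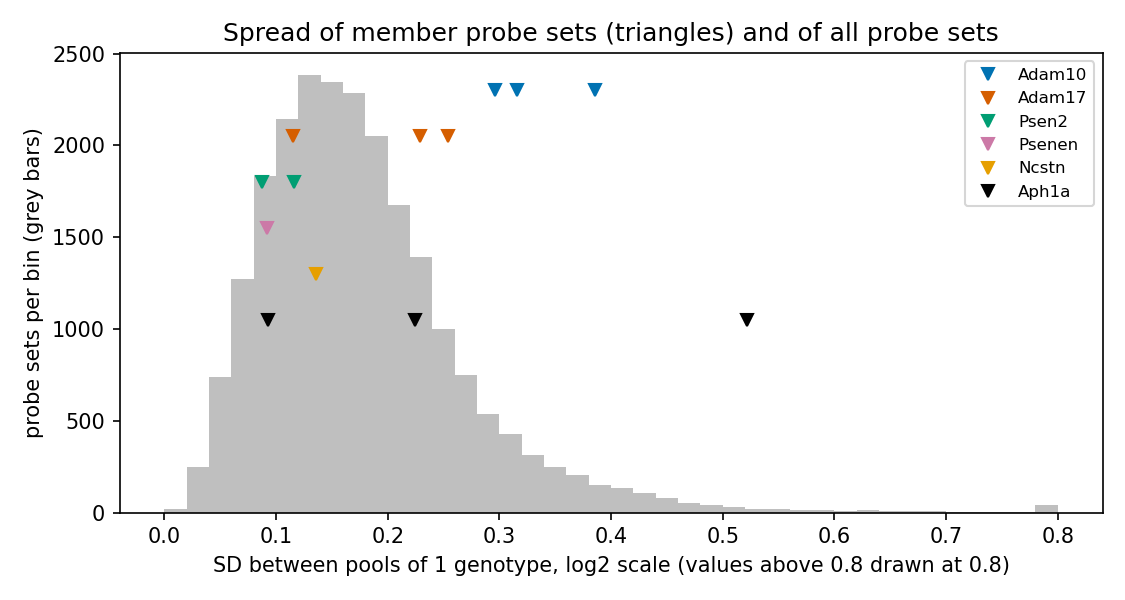
Residual SD between pools of 1 genotype on the log2 scale (horizontal axis) for all 22626 probe sets (grey bars, probe sets per bin) and for the 13 probe sets of the cleavage genes (triangles, whose height only separates the genes). Psen2, Psenen and Ncstn sit between 0.088 and 0.14, and the 3 Adam10 probe sets sit between 0.30 and 0.39.

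Single pools stood apart in 6 of the 13 probe sets. A pool was counted as alone and low where its ratio was under 0.75 and the other 5 were at least 0.8, and as alone and high where it was above 1.33 and the others were at most 1.25. These bounds were chosen after the values were seen. Mutant pool 2 was alone and low for 4 of the 13 probe sets (1450104_at, 1450105_at, 1421857_at and 1424980_s_at) and for 2.35% of all probe sets. WT pool 3 was alone and high for 2 (1428103_at and 1421858_at) and for 8.28% of all. It was alone and low for 0 of the 13 and for 2.65% of all. WT pool 1 was alone and low for 1428103_at and for 1.75% of all. The other 7 probe sets had no such pool. The share of all probe sets with any such pool was not counted.

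Other readouts moved with these pools, and their part in the values above was not tested. For 4 control transcripts the deposited ratio of the 3′ probe set was divided by that of the 5′ probe set. Each is a ratio to its own divisor, so the quotient compares pools only. It gives no level of RNA integrity or labelling. The quotient was highest in mutant pool 2 for 3 of these 4 transcripts. For Gapdh it was 1.03, 1.13 and 0.970 in mutant pools 1, 2 and 3, against 0.987, 0.968 and 0.978 in the WT pools. For pyruvate carboxylase it was 1.07, 1.24 and 0.982 in the mutant pools, against 0.836, 0.866 and 0.971 in the WT pools. For transferrin receptor it was 0.973, 1.11 and 1.03 in the mutant pools, against 1.06, 1.03 and 0.917 in the WT pools. For beta-actin WT pool 3 was highest, with 0.956, 1.10 and 0.924 in the mutant pools against 0.966, 1 and 1.11 in the WT pools. A control for ribosomal RNA, not counted among the 4, did not have its highest quotient in mutant pool 2. Its 3′ and 5′ probe sets had 1.35 and 1.58 there, against 0.855 and 0.377 in mutant pool 1.

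Markers of other tissues differed between pools too. All 8 heart muscle markers were higher in the mutant by sign, and their median log2 ratio was 2.13 in mutant pool 1, against -0.0065 and -0.0014 in mutant pools 2 and 3 and -0.18, 0.011 and -0.29 in the WT pools. Mutant pool 1 also held the highest values of the Aph1a probe sets 1424979_at and 1424980_s_at and of 1421859_at of Adam17. It held the lowest mutant value of the third Aph1a probe set, 1451554_a_at (1.02, against 1.16 and 1.20). A link to the heart markers was not tested. By sign, all 7 measured presomitic mesoderm markers had lower mutant values, and their pool medians were -0.12, -0.25 and 0.064 in the mutant pools, against 0.16, 0.00 and 0.12 in the WT pools. The medians of surface ectoderm and neural tube markers were highest in WT pool 3, at 0.31 and 0.30, but single members went the other way. Krt5 had its lowest ratio there (0.849), and Zic1 had 0.931 there, against 1.27, 1.19 and 1.01 in the mutant pools. The median of endothelial markers was highest in mutant pool 2, at 0.20, though Pecam1 had its lowest ratio there (0.660). The other marker medians lay between -0.24 and 0.20 in all pools. No marker gene passed the test.

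The genes that act before and after cleavage were counted in 7 lists, by gene means over all probe sets of a gene. By sign, 30 of 61 measured genes were higher in the mutant and 31 were lower, beside 51.1% and 48.9% of all genes. The median of their log2 differences was -0.0010, beside 0.0028 over all genes. Dll3 was the 1 of them that passed, as it was among all 12393 genes (0.00807%). The genes named for each list are the 3 with the smallest p of each list, and apart from Dll3 each had a limma adjusted p of 0.99998.

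Furin, which cuts Notch during its transport, and the tetraspanins, inactive rhomboids, Timp genes and Reck that act on the sheddases showed 6 of 12 genes higher and 6 lower (median 0.0048, or -0.013 without mutant pool 2 and 0.031 without mutant pool 3). Tspan15, a tetraspanin partner of Adam10, had ratios of 1.04, 1.11 and 0.955 in the mutant pools, against 1.05, 0.957 and 0.764 in the WT pools, a log2 difference of 0.18 with overlap. Tspan5, another Adam10 partner, had -0.09, and Timp3, an inhibitor of Adam17, had 0.078, both with overlap. Among the 12 genes, 1 not named here was lower without overlap, beside 1.84% of all genes.

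Regulators of gamma-secretase and relatives of presenilin had 5 of 8 genes higher and 3 lower (median 0.050, or 0.021 without mutant pool 2, 0.082 without WT pool 1 and 0.12 without WT pool 2). Ncln, whose product nicalin resembles nicastrin but is not a gamma-secretase subunit, had 1.04, 1.06 and 1.13 in the mutant pools, against 0.868, 0.900 and 0.958 in the WT pools. Its groups did not overlap, as for 3.11% of all genes in that direction, and the log2 difference was 0.25 (95% interval 0.029 to 0.47). Tmed10, a cargo receptor that modulates gamma-secretase, had -0.18, and Sppl3, a presenilin-like protease, had 0.14.

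The other ADAM genes had 8 of 10 members higher and 2 lower by sign (median 0.051, or 0.084 without mutant pool 3, 0.11 without WT pool 1 and 0.020 without WT pool 3). Their leading members were Adam15 (0.12), Adam22 (0.10) and Adam23 (0.075), the last pair being members without protease activity. None separated the genotypes.

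Notch receptors and ligands had 3 of 9 genes higher and 6 lower (median -0.08), among them Dll3, which fell. The list median was -0.0063 without mutant pool 3 and -0.021 without WT pool 3. The ligand genes Jag1 and Dll1 had -0.19 and -0.15, both with overlap. In the nuclear complex, the DNA-binding partner Rbpj had -0.075 and the coactivators Maml2 and Maml1 had 0.047 and 0.026.

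Notch target genes, which report the signal after cleavage, had 2 of 8 members higher and 6 lower (median -0.21), and 3 of 8 were lower without overlap, beside 1.84% of all genes. These were Nrarp, a feedback inhibitor of Notch (-0.63), the clock repressor Hes7 (-0.43) and the glycosyltransferase Lfng (-0.27). Nrarp had 0.837, 0.685 and 0.851 in the mutant pools, against 1.12, 1.20 and 1.35 in the WT pools. None of the 8 passed over all genes. This list, like the others, was chosen with earlier results of these data known, so setting it beside the share of all genes is no test. The list median was -0.12 without WT pool 3. The 7 presomitic mesoderm markers were lower by sign alongside (median -0.20), and Tbx6 and Hes7 among them were lower without overlap. Hes7 is in both lists, and without it the other 7 target genes had a median of -0.20, with 2 lower without overlap. The part of the marker shift in the target values was not tested.

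Other proteins cut by these enzymes had 4 of 11 genes higher and 7 lower (median -0.033, or -0.084 without mutant pool 1, -0.088 without WT pool 1 and -0.017 without WT pool 3). The Eph receptor gene Epha4 had -0.17, the cadherin gene Cdh1 had -0.28 and the amyloid precursor-like gene Aplp2 had -0.13. Cdh1 had 0.914, 1.14 and 0.961 in the mutant pools, against 0.966, 1.03 and 1.79 in the WT pools, so WT pool 3 stood alone. For Aplp2 mutant pool 2 was the lowest at 0.715, against 1.08 and 0.982 in the other mutant pools and 1.06, 1.02 and 0.925 in the WT pools.

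**Figure D4:**
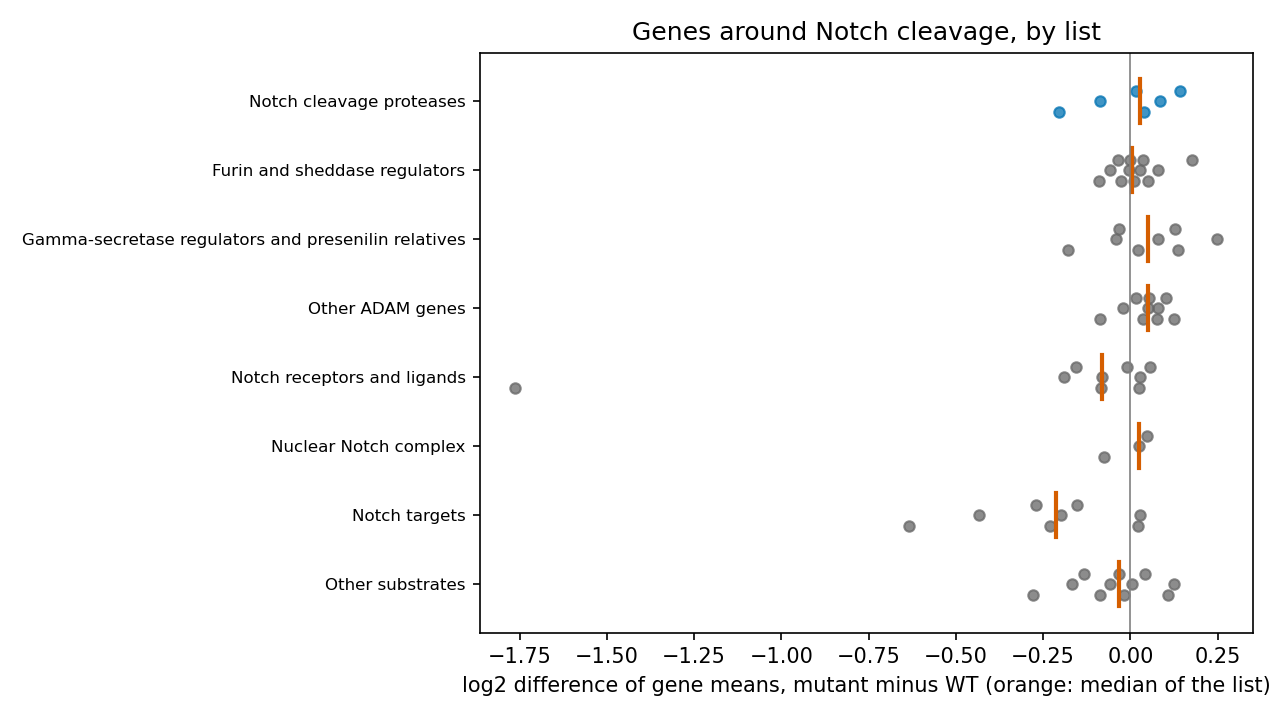
Log2 difference of gene means, mutant minus WT (horizontal axis), for the 6 measured cleavage protease genes (blue) and for the genes of 7 related lists (grey), 1 point per gene, with the median of each list in orange. The cleavage genes lie between -0.20 and 0.14, and the points farthest left are Dll3 at -1.76 and Nrarp at -0.63.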

How the data were processed

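The deposited values are linear ratios, 1 column per array, which the authors expressed relative to a probe set's median over the 6 arrays, as the values show. For 1640 of 22626 probe sets (7.25%) the median is below 1 by more than 0.002, so another divisor appears to have been used there. This concerned none of the 13 probe sets described. The submitters' processing notes list RMA and MAS5 but do not say what either did, so how arrays were normalized against each other is not known.

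Tests left out the 64 Affymetrix controls. The platform annotation gives 1 symbol to 20380 probe sets, several to 691 and none to 1555, and 20351 Entrez IDs matched the RefSeq gene table (GRCm38.p6) used to update names. No coordinates are given, because the file names no build.

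Genotypes were compared on log2 of the ratio with limma 3.58.1 in R 4.3.3 (lmFit, eBayes, two-sided, no covariate, all 6 arrays, Benjamini-Hochberg over all 22626 probe sets, threshold 0.05). Gene means over probe sets were fitted likewise for 12393 genes. No exact permutation test was used, since 3 pools against 3 give 0.1 at best. On simulated noise with 200 of 22626 probe sets changed, this test recovered 0% at 1.5-fold, 65.5% at 2-fold and 92.5% at 3-fold. The noise was normal and independent between pools, without the single pools that stand apart in the real data. With 200 true changes the adjusted threshold is also easier to reach than with the 1 call found here. These shares are therefore not a detection rate for these arrays. The number of arrays limits the precision.

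Members and lists were chosen with earlier results of these data known. Named genes were all member probe sets, Dll3, and from each list the 3 genes with the smallest p. Of 66 listed genes 61 were measured, and Rhbdf2, Tmed2, Hm13, Maml3 and Ephb2 were not analysed here. Alternatives were quantile normalization, centring, offsets of 0.1 and 1, a filter on medians below 1, a variance trend, robust variances, array weights, a replicate block, and each pool left out in turn. Plots used matplotlib 3.10.9.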

Additional observations from a re-analysis of the deposited data

How the results depend on the processing

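No cleavage gene passed the test under any of the 15 alternatives. Their lowest limma adjusted p was 0.209, for Aph1a 1451554_a_at with array weights, which gave WT pool 2 a weight of 83.9 and the other arrays 0.137 to 0.756, in an estimation that stopped before it converged. With array weights, 3 of 13 member probe sets had an unadjusted limma p under 0.05, beside 3641 of all 22626 probe sets. Without mutant pool 1, 2 of 13 did, beside 342 of all. Under the other alternatives 0 member probe sets did. Of 285 recomputed values 264 kept their sign and 21 turned. The sign held throughout for 4 of 13 probe sets (1450105_at, 1425869_a_at, 1418570_at and 1451554_a_at) and for the gene means of Adam10, Adam17, Psen2 and Ncstn.

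Most turns came from leaving out 1 pool. Over those 6 sets the log2 difference ran from -0.25 to 0.19 for 1428103_at, from -0.32 to 0.016 for 1450104_at, from -0.27 to 0.014 for 1421857_at, from -0.22 to 0.087 for 1421858_at and from -0.066 to 0.063 for 1421859_at. It ran from -0.086 to 0.045 for 1431542_at, from -0.0081 to 0.11 for Psenen, from -0.062 to 0.22 for 1424979_at, from -0.52 to 0.16 for 1424980_s_at and from -0.093 to 0.14 for the Aph1a mean. Quantile normalization gave 0.017 for 1428103_at and 0.012 for 1421858_at, and array weights gave 0.16 for 1421858_at and -0.087 for 1424979_at. For these last 4 values the cause was not tested.

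Over all probe sets the count past the threshold, 1 as reported, was 2 with quantile normalization, 4 with array weights, and between 0 and 1 when 1 pool was left out, where limma gave 168 to 718 probe sets at an unadjusted p under 0.05.

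The deviations of same-numbered mutant and WT pools correlated at 0.21, 0.017 and 0.17, and those of the 6 differently numbered pairs at -0.21 to 0.083. The pairs of pools 1 and of pools 3 gave the highest of the 9 values, and the pair of pools 2 did not. Whether pools of equal number shared a factor was not tested, and the main fit did not pair them. With the replicate number as a block the count of calls stayed at 1, with 434 probe sets instead of 262 at an unadjusted p under 0.05, and no cleavage gene passed. The ratios carry no signal over background, so dim probe sets could not be set apart.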

Other observations

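The mean profile of Psenen, Ncstn and Aph1a over the 6 arrays was most like that of Asgr1 (Pearson's r = 0.98), Sfxn4 (0.98) and Ugt2b5 (0.97) among 12387 other genes. Aph1b, which the rule also named, had no value. These 3 genes, the measured subunits other than presenilin, did not share a profile among themselves, with r = 0.032 for Psenen with Ncstn, 0.19 for Psenen with Aph1a and -0.18 for Ncstn with Aph1a. With 6 arrays and this many genes such values are a description only.

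The Affymetrix control probe sets for transferrin receptor, which were left out of the tests, were low in mutant pool 2 as well. The 3′, 5′ and middle probe sets had ratios of 0.494, 0.447 and 0.544 there, against 0.947 to 1.07 in the other mutant pools and 0.824 to 1.11 in the WT pools.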
